A study of Homo sapiens with 6 samples.

Results

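RPLP1, RPL10 and EIF3D are the translation genes chosen here from the control-gene probes of a microarray, each printed at 10 places per array. They were picked by the RefSeq transcript that each probe carries, and make up 3 of the 20 human genes printed in this way. RPLP1 and RPL10 encode proteins of the large ribosomal subunit, and EIF3D encodes a subunit of the initiation factor eIF3. The arrays compared the prostate cancer line LNCaP (n = 3 arrays), which depends on androgen and grew in medium with fetal bovine serum, with LNCaP-AI (n = 3 arrays). LNCaP-AI is an androgen-independent line that was obtained by keeping LNCaP for a long time in medium with charcoal-stripped serum, from which steroid hormones are largely removed. LNCaP is an established line first grown from a lymph node metastasis. Both lines are bulk cultures with no other treatment, and the comparison asks how RNA levels differ between an androgen-independent line and its parent.

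Ribosomes are built from ribosomal RNA and a large set of ribosomal proteins, and eIF3 helps to bring the small subunit and the initiator transfer RNA to the messenger RNA. Cells usually make the messenger RNAs of these proteins in large amounts, so that genes of this kind often serve as array controls. Many of these messenger RNAs begin with a C that is followed by a run of pyrimidines (C or T in the DNA). This 5′ terminal oligopyrimidine tract lets signals through PI3K, AKT and mTOR change how strongly the RNA is translated, usually with little change in its amount. The arrays measured RNA amounts and hold no measurement of translation.

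The beginnings of the 3 genes are shown because each gene has a listed start that begins with such a run. Apart from RPS18, treated below, the starts of the other repeated genes were not looked at singly. Each line gives the 15 bases before an annotated transcription start and the first 15 transcribed bases, from RefSeq on GRCh38.p14. Capitals mark the run of pyrimidines that begins at the start site. RPLP1 has 1 listed start (chr15:69452803-69452832, plus strand), EIF3D has 1 (chr22:36529152-36529181, minus strand), and for RPL10 the second of 3 listed starts is shown (chrX:154398362-154398391, plus strand).
RPLP1: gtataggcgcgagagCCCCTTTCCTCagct
RPL10: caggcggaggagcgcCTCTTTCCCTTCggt
EIF3D: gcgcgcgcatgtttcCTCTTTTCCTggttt

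The uninterrupted run was 11 bases long in RPLP1, 12 in RPL10 and 10 in EIF3D. The other two RPL10 starts had runs of 0 and 2 bases. Each start of all listed genes was read once, on the gene's own strand only. A C followed by pyrimidines to a total of at least 5 bases stood at 1429 of 35116 starts (4.07%), and a total of at least 10 bases at 270 (0.769%). The match describes the letters at annotated starts. It does not show which start the transcripts in these cells used, and the letters of the array probes themselves were not part of the files used here.

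Several other facts bear on what the 3 probes read. RefSeq lists 13 pseudogenes named after RPLP1 and 19 named after RPL10, and none named after EIF3D. RPL10 has 6 RefSeq transcripts, RPLP1 has 2 and EIF3D has 3. Whether the probes of the ribosomal genes share sequence with those pseudogenes, and which of the transcripts each probe covers, was not tested. The probes carry the accessions NM_001003 (RPLP1), NM_006013 (RPL10) and NM_003753 (EIF3D).

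On the 6 arrays 64.5% to 67.2% of 58965 probes were well above background, and no spot was saturated. LNCaP replicates a and b lay on 1 slide, and LNCaP replicate c lay on the other slide together with all 3 LNCaP-AI arrays. Correlations were taken after the quantile normalization described below, over those of the 39105 tested probes that had a value on every array. Probes are not independent replicates. Pearson r of the log2 values was 0.988 to 0.990 for pairs of LNCaP arrays and 0.980 to 0.988 for pairs of LNCaP-AI arrays. It was 0.962 to 0.971 for mixed pairs. The labels identify separate samples but do not say whether they came from separate cultures, so p-values measure the spread between these arrays, which may be technical. Precision is limited by how few arrays there are. With few exceptions the remaining probes carry no gene name in the files, so markers of prostate cells and of other cell types were not checked here.

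All 60 spots of each of the 3 genes, 10 on each of 6 arrays, were well above background, and none was saturated. Of the 600 spots per array that the design names as negative, some were also well above background. These were 86, 89 and 91 in LNCaP and 101, 103 and 105 in LNCaP-AI. The mark alone therefore does not show that a dim probe such as that of RPL10 read its own RNA. The intensities given next are the scanner values after background subtraction by the scanner software, in arbitrary units, before any scaling between arrays. Each value is the mean of the spots kept on 1 array. Spots marked as outliers by the software were left out, which removed 8 spots of RPLP1, 2 of RPL10 and 3 of EIF3D.

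RPLP1, an acidic protein of the ribosomal stalk that helps to engage elongation factors, gave 404866, 352107 and 374338 on the LNCaP arrays a, b and c. It gave 361594, 400117 and 370007 in LNCaP-AI replicates 1, 2 and 3. The lines overlapped, and their means of 377104 ± 26488 and 377239 ± 20254 (SD, n = 3 each) did not differ beyond the spread between arrays (exact permutation test, two-sided, p = 1).

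RPL10, a protein that joins the large subunit late in its assembly and lies near the site of peptide bond formation, gave 166, 111 and 117 in LNCaP. It gave 89.3, 97.6 and 96.0 in LNCaP-AI. Every LNCaP-AI array was dimmer than every LNCaP array, and LNCaP replicate a stood above the other two LNCaP arrays. The means were 131 ± 30.1 in LNCaP and 94.3 ± 4.40 in LNCaP-AI (SD, n = 3 each; exact permutation test, two-sided, p = 0.1, the smallest that 3 against 3 arrays can give).

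EIF3D, the eIF3 subunit that can bind the cap of certain messenger RNAs, gave 161954, 127421 and 112328 in LNCaP. It gave 136001, 132116 and 123653 in LNCaP-AI. The LNCaP arrays spanned the whole range of the LNCaP-AI arrays, and the means of 133901 ± 25440 and 130590 ± 6314 (SD, n = 3 each) did not differ beyond that spread (exact permutation test, two-sided, p = 0.9).

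**Figure D1:**
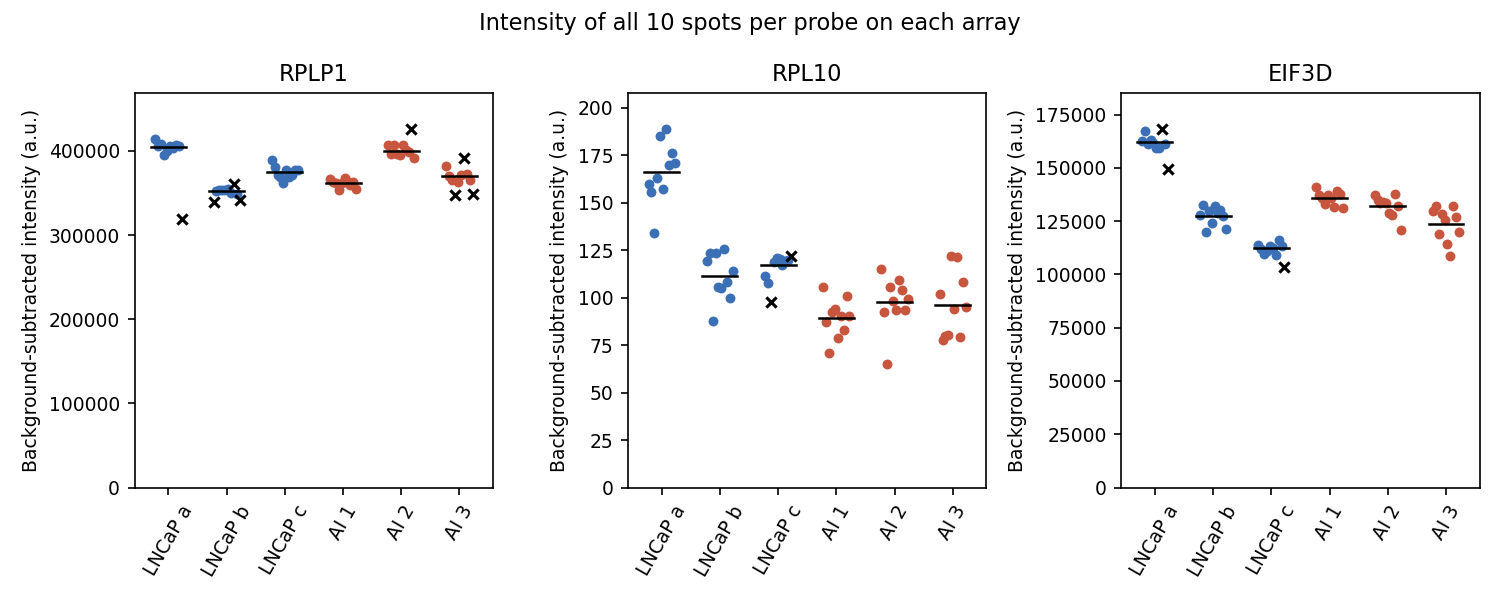
Intensity of every spot of RPLP1, RPL10 and EIF3D on each of the 6 arrays, in arbitrary units before scaling between arrays, with LNCaP in blue and LNCaP-AI in red, and outlier spots marked by a cross. RPL10 spots lay between 87.8 and 189 in LNCaP and between 65.1 and 122 in LNCaP-AI. The spots of all 3 genes overlapped between the lines, and only the array means of RPL10 were apart.

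The repeated spots of 1 array were most alike for RPLP1, whose coefficient of variation over the kept spots was 0.566% to 2.01%. It was 1.54% to 6.42% for EIF3D and 4.12% to 17.7% for RPL10. On the log2 scale the pooled SD between spots was 0.02 for RPLP1, 0.05 for EIF3D and 0.18 for RPL10. Spots of 1 array share the RNA and the hybridization, so they describe the precision of an array and are not replicates of a line.

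The RPL10 probe was dim for a gene of the ribosome. RPLP1 ranked 8th to 17th brightest of 58965 probes over the 6 arrays, EIF3D ranked 161st to 220th, and RPL10 ranked between 23107th and 27206th. RPL10 was 1.94, 1.68 and 1.65 times the median probe of its array in LNCaP, and 1.39, 1.26 and 1.40 times in LNCaP-AI. The share of probes dimmer than RPL10 was 60.8%, 58.8% and 58.6% in LNCaP and 55.8%, 53.9% and 55.8% in LNCaP-AI, so that its standing also differed between the lines without overlap. Probes differ in how well they bind and label, so the brightness of different probes does not give the relative amounts of their RNAs.

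Spots that the design names as negative gave a second measure of where RPL10 stood. Of 600 such spots per array, 26, 30 and 34 in LNCaP and 57, 61 and 49 in LNCaP-AI were at least as bright as the dimmest RPL10 spot of that array. None was as bright as any RPLP1 or EIF3D spot. The median negative spot lay between 4.70 and 6.44 on the 6 arrays. The brightest negative spot lay between 445 and 640, above every RPL10 spot. At the other end, the median pixel of the brightest RPLP1 spot reached 46.5% to 55.0% of the saturation value of the scanner.

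**Figure D2:**
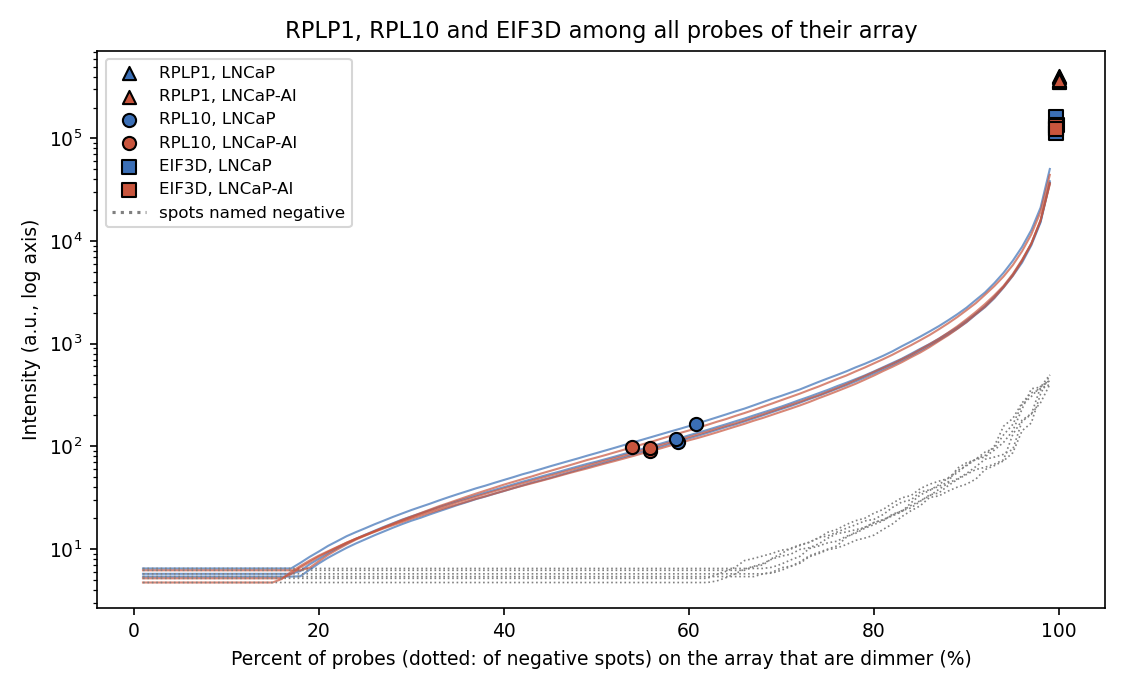
Intensity (arbitrary units, log axis) against the percent of probes that are dimmer, with 1 line per array for all probes, blue for LNCaP and red for LNCaP-AI, and dotted lines for the negative spots. Triangles (RPLP1) and squares (EIF3D) lie at the bright end, while circles (RPL10) lie at 53.9% to 60.8%, with the 3 LNCaP-AI arrays to the left.

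For the comparison across all probes, the arrays were quantile-normalized, which gives every array the same distribution of values. RPLP1 then lay at 18.54, 18.56 and 18.56 log2 units in LNCaP and at 18.50, 18.50 and 18.50 in LNCaP-AI. RPL10 lay at 7.09, 6.91 and 6.90 in LNCaP and at 6.65, 6.48 and 6.64 in LNCaP-AI. EIF3D lay at 17.07, 17.10 and 16.87 in LNCaP and at 17.14, 16.85 and 17.005 in LNCaP-AI. The lines did not overlap for RPLP1, where they lay 0.04 apart, or for RPL10, where they lay 0.25 apart. They overlapped for EIF3D.

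None of the 3 genes passed the test across all probes (limma, Benjamini-Hochberg adjusted p under 0.05), which called 5714 of 39105 tested probes (14.6%). At an unadjusted p under 0.05, limma counted 1 of the 3, RPL10, and 11170 of all tested probes (28.6%). The methods' t-test, run here unpaired and with equal variances, counted 1 of the 3 after Benjamini-Hochberg adjustment, RPLP1, and 3799 of 39087 probes (9.72%). Lines that did not overlap were found for 2 of the 3 genes and for 35.0% of all tested probes.

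RPL10 was 0.38 log2 units lower in LNCaP-AI (SE 0.12, 95% interval -0.66 to -0.10, limma adjusted p = 0.0830 over all probes), a probe signal 0.769 times that of LNCaP. The size of the difference depended on how background was handled, and was -0.23 with normexp background and an offset of 50. All 9 pairs of an LNCaP-AI and an LNCaP array showed this direction. The interval leaves out 0, but the gene did not pass the adjustment over all probes. Of all tested probes, 30.6% differed by more than RPL10 in either direction. In bulk RNA a smaller share of expressing cells and less RNA per cell cannot be told apart.

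Within slide 2, which held LNCaP replicate c and the 3 LNCaP-AI arrays, RPL10 differed by -0.31 (SE 0.19, limma adjusted p = 0.527). A fit over all arrays that blocked on the slide also gave -0.31 (SE 0.18, limma adjusted p = 0.441). Leaving out 1 array at a time gave -0.41 to -0.32, and the gene did not pass the adjusted test in any of these fits (limma adjusted p = 0.110 to 0.228).

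RPLP1 differed by -0.05 (SE 0.10, 95% interval -0.30 to 0.19, limma adjusted p = 0.782). It was lower in all 9 pairs of arrays after quantile normalization, yet the sign turned with the scaling. After scaling each array to its 75th percentile the values were 18.31, 18.56 and 18.56 in LNCaP and 18.67, 18.43 and 18.61 in LNCaP-AI, a difference of 0.10 (SE 0.14, limma adjusted p = 0.707) with 7 of 9 pairs higher. Without scaling the difference was 0.0015.

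The quantile-normalized RPLP1 values had a spread between arrays of a line of 0.01 (pooled SD, log2), below the pooled SD of 0.02 between spots of 1 array. Quantile normalization gives spots of equal rank an equal value on every array. By the mean of its kept spots before normalization, RPLP1 ranked 9th, 8th and 11th among probes in LNCaP and 14th, 14th and 17th in LNCaP-AI. These are ranks of probes and not of spots, and whether rank accounts for the small spread was not tested. After scaling to the 75th percentile the SD between arrays was 0.15 in LNCaP and 0.13 in LNCaP-AI. The methods' t-test, which takes the spread from this gene alone, gave -0.05 with an SE of 0.0043 (Benjamini-Hochberg adjusted p = 0.0126 over all probes), whereas limma, which draws each spread toward that of all probes, used an SE of 0.10.

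EIF3D differed by -0.02 (SE 0.13, 95% interval -0.33 to 0.29, limma adjusted p = 0.953), with 5 of 9 pairs lower. Scaling to the 75th percentile gave 0.07 (SE 0.15, limma adjusted p = 0.809), so the sign of this small difference turned as well. For EIF3D the spread between arrays of a line, 0.13 (pooled SD, log2), was larger than the 0.05 between spots of an array. Given the width of both intervals, the small values do not show that RPLP1 or EIF3D stayed equal.

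**Figure D3:**
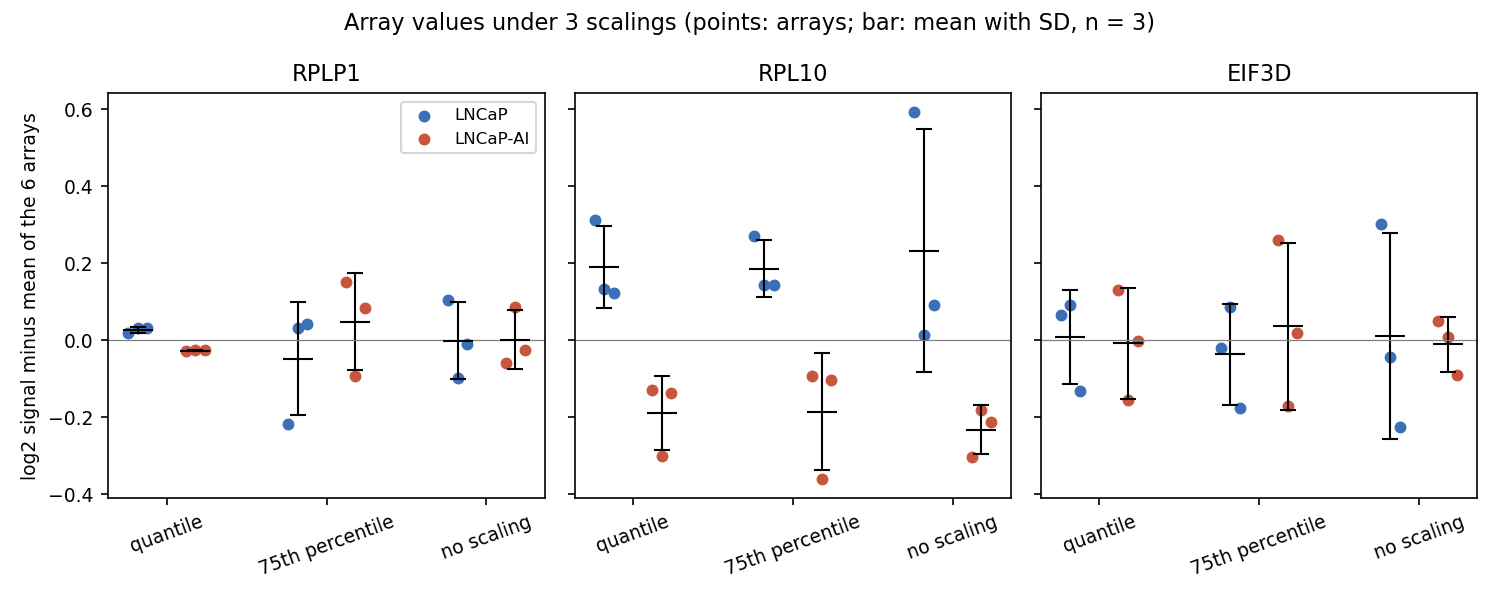
Log2 values of the 3 genes on each array after quantile normalization, after scaling to the 75th percentile and without scaling, with LNCaP in blue, LNCaP-AI in red and horizontal bars at the means of 3 arrays. RPL10 was lower on all LNCaP-AI arrays under each of the 3 scalings, whereas the RPLP1 arrays were apart only after quantile normalization.

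**Figure D4:**
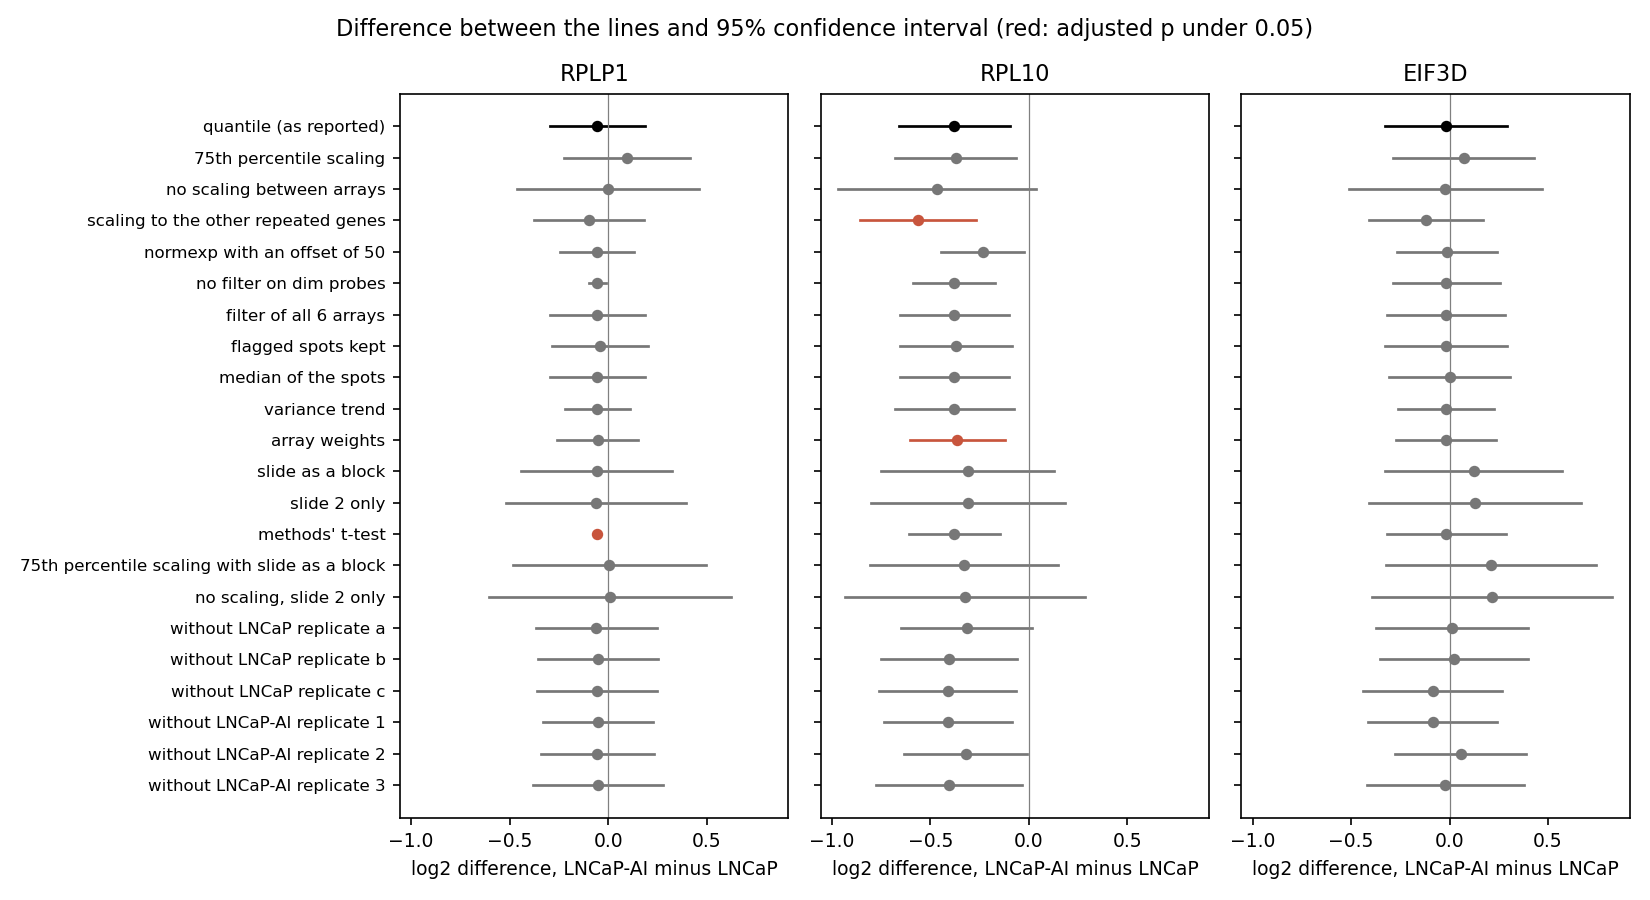
Difference between LNCaP-AI and LNCaP (log2) for each gene under every processing setting, with 95% intervals as bars; black marks the setting as reported and red an adjusted p under 0.05. RPL10 lay below 0 under every setting drawn, between -0.56 and -0.23, while RPLP1 and EIF3D lay on either side of 0.

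Ratios of the probes within an array do not depend on a scaling of the whole array by 1 factor. Quantile normalization is not a scaling of that kind, so ratios from unscaled intensities are given as well. After quantile normalization the log2 ratio of RPL10 to RPLP1 was -11.46, -11.65 and -11.66 in LNCaP and -11.85, -12.02 and -11.86 in LNCaP-AI. The lines did not overlap, and the ratio was 0.32 lower in LNCaP-AI (-11.91 ± 0.10 against -11.59 ± 0.11, SD, n = 3 each). The log2 ratio of RPL10 to EIF3D was -9.99, -10.19 and -9.98 in LNCaP and -10.49, -10.38 and -10.37 in LNCaP-AI, with a difference of -0.36 and again no overlap. Both exact permutation tests (two-sided) gave p = 0.1, the smallest possible, and an adjusted p of 0.15 over the 3 pairs of genes. From the unscaled intensities the differences were -0.47 for RPL10 to RPLP1 and -0.44 for RPL10 to EIF3D, with no overlap in either.

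The log2 ratio of EIF3D to RPLP1 was -1.47, -1.46 and -1.68 in LNCaP and -1.36, -1.65 and -1.49 in LNCaP-AI. These values overlapped, and the difference of 0.04 did not exceed the spread between arrays (exact permutation test, two-sided, p = 0.8, adjusted p = 0.8 over the 3 pairs). From unscaled intensities it was -0.02. Both RPL10 ratios were thus lower in LNCaP-AI in all 9 pairs of an LNCaP-AI and an LNCaP array. Neither passed after adjustment (exact permutation test, two-sided, p = 0.1 and adjusted p = 0.15 for each). These ratios do not show that RPLP1 and EIF3D did not change.

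The 10 spots of each gene lie at different places, and the places are the same on all arrays. Spots marked as outliers were kept in this comparison of places. RPL10 was lower in LNCaP-AI at 10 of 10 places, by -0.48 to -0.16 log2 units after scaling to the 75th percentile and by -0.57 to -0.26 without scaling. Without scaling the lines did not overlap at 6 of those 10 places. RPLP1 was higher in LNCaP-AI at 10 of 10 places after scaling to the 75th percentile, by 0.07 to 0.17, but at 7 of 10 without scaling. The 0.17 came from the place in row 383. There the spots of LNCaP replicates a and b and of LNCaP-AI replicate 3 were marked as outliers. EIF3D was higher at 9 of 10 places after that scaling and at 4 of 10 without. The places share the RNA of each array and are not replicates of a line.

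**Figure D5:**
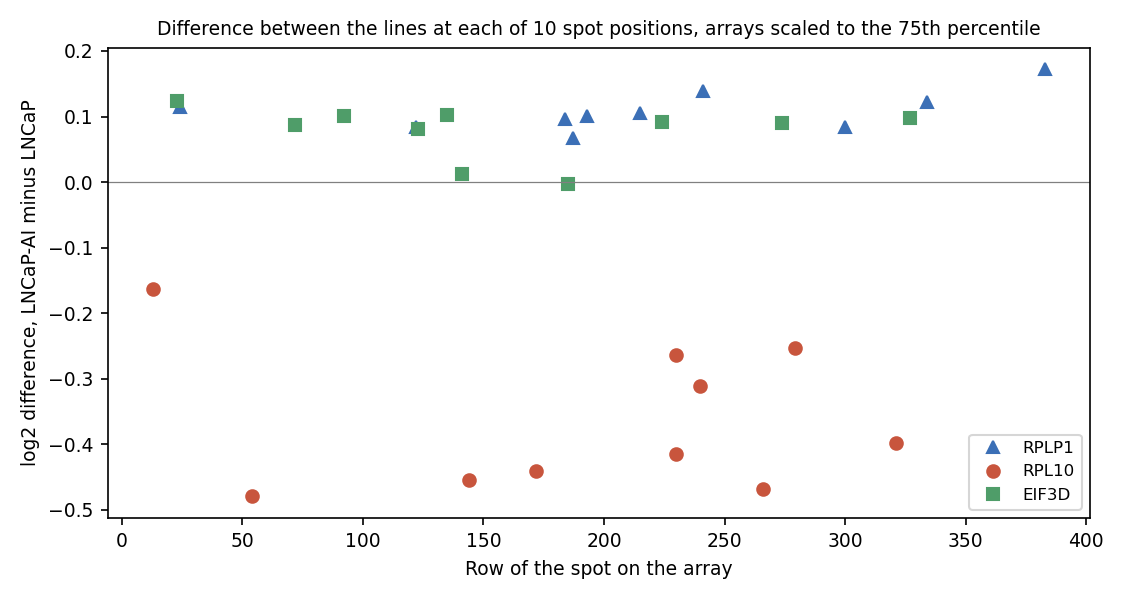
Difference between LNCaP-AI and LNCaP (log2, means of 3 arrays, scaled to the 75th percentile) at each of the 10 places of a gene against the row of the spot on the array. Outlier spots are included. All RPL10 places (red circles) lay between -0.48 and -0.16, all RPLP1 places (blue triangles) between 0.07 and 0.17, and the EIF3D places (green squares) between -0.0027 and 0.12.

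Some places were dimmer than the others of the same gene on most arrays, again with outlier spots kept. The RPL10 spot in row 144, column 3 was the dimmest of 10 on 5 of 6 arrays and lay on average 0.35 log2 units below the median spot. The EIF3D spot in row 327, column 143 was the dimmest on 4 of 6 arrays and below the median on all 6. The array averages given further above hold the same places in both lines, apart from spots left out as outliers.

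The other 17 repeated genes gave the background for these differences. In the quantile-normalized data 1 of the 17 was called (PGK1), against 14.6% of all tested probes. In LNCaP-AI 10 were higher and 7 lower, and their differences ran from -0.24 to 0.61 log2 units with a median of 0.06. The median over all tested probes was -0.02, and the median size of a difference, regardless of sign, was 0.23. The RPL10 value of -0.38 lay below all 17, and no test was made of that rank. The lines did not overlap for 6 of the 17, against 35.0% of all tested probes.

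Other genes of translation among the named probes were looked for by symbol only, which can miss genes that are named otherwise. By the prefix of the symbol, only RPS18, a protein of the small ribosomal subunit, joined the 3 genes, which makes a list of 4 with none called by limma after adjustment, in either direction, and 1 (RPL10) at an unadjusted p under 0.05, which 28.6% of all tested probes reached. RPS18 differed by -0.03 (SE 0.11, limma adjusted p = 0.874) after quantile normalization and by 0.11 (limma adjusted p = 0.715) after scaling to the 75th percentile. Its probe gave 375055 to 415019 over the 6 arrays, with no separation of the lines. RPS18 also begins with a pyrimidine run, of 9 bases, at its listed start.

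Among the other repeated genes, those that varied most like RPLP1 over the 6 arrays were H3-3A (Pearson r = 0.89), which encodes a histone, and MTX1 (0.61), a mitochondrial import protein. The same pair was nearest to RPL10, with r = 0.86 for H3-3A and 0.84 for MTX1. For EIF3D they were COX4I1 (0.92), a subunit of cytochrome c oxidase, and ODC1 (0.83), the enzyme that makes putrescine. The points share lines, slides and normalization, so these values are descriptions only.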

How the data were processed

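Labelled cRNA, made from rRNA-depleted RNA of LNCaP and LNCaP-AI (3 arrays each), was hybridized to 1-colour Agilent arrays with an Arraystar long noncoding and coding RNA design. The deposited files hold spot intensity values from Agilent Feature Extraction 11.0.1.1, which the authors' scanner software had background-subtracted but not normalized between arrays. The analysis omitted control spots, 600 spots named negative and spots the software marked as outliers. Outlier spots were kept only where single spots or places were described or compared, and in the alternative that kept them. Quantile normalization was chosen because the study's methods name it. Intensities were floored at 1, log2-transformed and then normalized, and spots of a probe were averaged. A probe was tested if 3 or more of the 6 arrays had it well above background. The two-sided test used lmFit and eBayes of limma 3.58.1 in R 4.3.3, and p-values were adjusted over all probes tested (Benjamini-Hochberg). Calls needed an adjusted p under 0.05. The step was tested on simulated data. Single values were compared by exact permutation of the arrays.

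Groups came from the cell line in the labels. LNCaP arrays are named a to c and LNCaP-AI arrays 1 to 3. Slides were read from the file headers. Alternatives covered scaling (75th percentile, none, or the other 17 repeated genes), normexp background with an offset of 50, the filter, outlier spots, the median of spots, a variance trend, array weights, slide, the methods' t-test and leaving out 1 array. The genes and lists were chosen with earlier results of these data known. RPLP1, RPL10 and EIF3D were named by rule, with the 2 most similar repeated genes for each; PGK1 was named after its value was seen. Gene symbols came from RefSeq by accession, and all 20 repeated accessions matched.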

Additional observations from a re-analysis of the deposited data

How the results depend on the processing

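RPL10 was lower in LNCaP-AI under all settings tried. It passed the adjusted threshold only with scaling to the other 17 repeated genes (-0.56, limma adjusted p = 0.0249, where the median of all probes moved to -0.18) and with array weights (-0.36, limma adjusted p = 0.0427); with normexp it was -0.23. RPLP1 turned positive with 75th percentile scaling (0.10) and without scaling (0.0015), and, in settings chosen after seeing the data, with that percentile and slide as a block (0.0059) and without scaling on slide 2 only (0.0099); it passed only under the methods' t-test (-0.054). EIF3D turned positive with 75th percentile scaling (0.072), the median of spots (0.00023), slide as a block (0.12), slide 2 only (0.13), 75th percentile with the block (0.21) and no scaling on slide 2 (0.22). Leaving out 1 array gave -0.06 to -0.05 for RPLP1, -0.41 to -0.32 for RPL10 and -0.085 to 0.057 for EIF3D. The ratio of EIF3D to RPLP1 turned to -0.023 without scaling and ran from -0.034 to 0.11 with 1 array left out. Both RPL10 ratios stayed negative. The cause of these turns was not tested.

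The 5714 calls became 2953 without scaling, 3799 with the methods' t-test, 9188 with array weights, 1645 with slide as a block, 696 on slide 2 only, 1513 with 75th percentile and block, 450 without scaling on slide 2, and 2726 to 5587 with 1 array left out. Scaling to the repeated genes gave 6767, of which 1900 were higher in LNCaP-AI, against 2887 of 5714. No paired analysis was possible because the arrays of the lines share no replicate numbers. Signal over background was lowest for RPL10, where 26 to 61 of 600 negative spots per array were at least as bright as its dimmest spot.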
